A study of Homo sapiens with 22 samples.

Results

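CCR4-NOT is the protein complex that carries out most of the shortening of poly(A) tails in the cytoplasm of animal cells. The transcripts of 10 of its subunit genes (CNOT1, CNOT2, CNOT3, CNOT9, CNOT10, CNOT6, CNOT6L, CNOT7, CNOT8 and CNOT4) were followed during a BRIC-Seq chase, out of 15035 genes that could be tested. That total counts each tested transcript without a matched gene name as a gene of its own. Each gene was represented by its protein-coding transcript with the highest mean count over the 0-10 h libraries, and all 10 passed the filter of a mean of 1 CPM (counts scaled to library size). BRIC-Seq labels RNA with bromouridine (BrU), a uridine analogue, and recovers the labelled RNA with an anti-BrdU antibody after increasing times in medium free of BrU. The cells were HEK293T, an embryonic kidney line, expressing a control hairpin (shControl) or a hairpin against the E3 ligase gene ZNF598 (shZNF598), with no other treatment in either arm. All dishes received 150 μM BrU for 24 h, and the chase lasted 0, 2, 4, 6 or 10 h with 2 libraries per hairpin at each time, or 24 h with 1 library per hairpin. The sources do not say whether the 2 libraries of a group came from separate cultures, so p-values measure only the spread between these libraries. Only 1 hairpin against ZNF598 is named in the labels, so effects of the hairpin and of the loss of its target cannot be told apart.

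The complex is built on CNOT1, a long scaffold protein that holds the other subunits. CNOT2 and CNOT3 form the NOT module near one end of CNOT1, CNOT10 joins the other end together with CNOT11, and CNOT9 binds the middle and offers a docking surface for RNA-binding adaptors. The poly(A) tail is cut by a pair of nucleases, either CNOT6 or CNOT6L and either CNOT7 or CNOT8, so that each catalytic position can be filled by a pair of paralogues. CNOT4 is a RING-type E3 ubiquitin ligase that is only loosely attached in human cells. ZNF598 marks collided ribosomes with ubiquitin, and deadenylation by CCR4-NOT is among the routes by which slowly translated mRNAs are removed. The data measure the RNAs that encode the complex, not its activity.

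Letters that match the binding motifs of adaptors known to recruit the complex were searched in the 3′ UTRs of the 10 transcripts (GENCODE release 44, GRCh38, sense strand). The octamer TGTANATA, which PUM2 binds, was present in 6 of 10 transcripts, against 31.7% of 10634 protein-coding transcripts read the same way. CNOT8 held 4 copies in 1353 nt, CNOT7 held 2, and CNOT1, CNOT2, CNOT6L and CNOT4 held 1 each. The AU-rich pentamer ATTTA was present in 9 of 10 (none in CNOT9), against 75% of all, with 26 copies in the 7044 nt of CNOT6L and 17 in the 4158 nt of CNOT6. The nonamer TTATTTATT, which contains the pentamer, was present in 0 of 10, against 9.8% of all. These shares were not matched for 3′ UTR length, whose median was 2286.5 nt for the 10 and 1454.5 nt for all. The windows below, each of 30 bases, show the octamer in capitals for CNOT8, the gene with most copies, and for the 4 genes with 1 copy, so that the copies can be compared.
CNOT8, chr5:154875628-154875657, plus strand: tgctctgaattTGTAAATAagtcttcccca
CNOT8, chr5:154875755-154875784, plus strand: aagtagtaaaaTGTATATAactcttacctg
CNOT8, chr5:154875900-154875929, plus strand: aggtaatgggtTGTAGATActgagtcttcc
CNOT8, chr5:154876722-154876751, plus strand: tttaagatgctTGTAAATActatttatgtt
CNOT1, chr16:58520698-58520727, minus strand: ttttgaacttgTGTAAATAcatgaaagaga
CNOT2, chr12:70354642-70354671, plus strand: atgtacgaatgTGTATATAttatatatatg
CNOT6L, chr4:77718517-77718546, minus strand: gtgaattttgaTGTAAATAaaatatctttt
CNOT4, chr7:135386234-135386263, minus strand: gtttgtgtgcaTGTACATAtgtccattttt
A match is a description of the letters, and binding was not measured. The transcripts counted as CNOT2, CNOT9 and CNOT10 have another length in release 44, so their UTR features may differ from those of the counted versions.

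The UTRs and coding regions also varied in ways the choice of genes did not use. The 3′ UTR ranged from 264 nt in CNOT10 to 7044 nt in CNOT6L, with a median of 2286.5 nt against 1454.5 nt over the 10634 transcripts. G or C at the third codon position, which is often discussed as a correlate of mRNA stability, ranged from 39.6% in CNOT7 to 73.3% in CNOT3, with a median of 43.6% against 57.0% for all.

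Total counts were 52352359 to 96963584 in the 20 libraries of 0-10 h, and 21220829 (shControl) and 40157613 (shZNF598) at 24 h. The targeted gene ZNF598 was at 3.87 to 8.32 CPM in the shControl libraries of 0-10 h and at 0.407 to 1.04 CPM in those of shZNF598, with 4.80 and 2.36 CPM at 24 h. Its difference at 0 h was -3.08 ± 0.19 (log2, SE, adjusted p = 2.59e-10, edgeR), and in bulk RNA fewer molecules per cell and fewer expressing cells cannot be told apart. KRT8, KRT18 and VIM, expected in HEK293T cells, were at 12.3 to 130 CPM, and PTPRC, HBB, ALB, PECAM1 and INS, markers of other cell types, were at 0.0107 CPM or below, with HBB and INS at 0. On the averaged level KRT8 was lower (-0.17, adjusted p = 0.0249) and VIM higher (0.15, adjusted p = 0.0129, edgeR) in shZNF598, and the part of such shifts in the results was not tested. The 2 shControl libraries at 0 h stood apart from each other for several CCR4-NOT genes. Replicate 1 was 1.5 to 1.58 times replicate 2 for CNOT1, CNOT3, CNOT6, CNOT6L and CNOT4, whereas the ratio was 0.802 for CNOT9 and 0.987 to 1.05 for CNOT2, CNOT10, CNOT7 and CNOT8, and the median over all transcripts was 0.981. In shZNF598 the same ratio was 0.904 to 1.16 for the 10 genes. Where leaving out one of these libraries changed a call, the value without it is given.

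Levels below are CPM after TMM scaling of the libraries, per library or as mean ± SD (n = 2). TMM sets the bulk of labelled transcripts in each library to the same level, so a level that rises during the chase is one that declined less than the bulk. Slopes are log2 CPM per hour over 0-10 h relative to that bulk, with SE.

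Most CCR4-NOT mRNAs declined faster than the bulk in both arms, and the members differed widely. In shControl, 8 of 10 had a slope below 0 (adjusted p below 0.05, quasi-likelihood test of edgeR, Benjamini-Hochberg over all transcripts), where 40.8% of the 79513 transcripts tested and 52.5% of 10725 protein-coding genes, with 1 transcript each, did. In shZNF598, 8 of 10 had a slope below 0, against 38.5% of transcripts and 49.3% of genes. None of the 10 had a slope above 0 that passed the test, against 33.5% and 32.7% of transcripts. The median slope of the 10 was -0.159 in shControl and -0.147 in shZNF598, and that of the protein-coding genes was -0.057 and -0.049. CNOT9, CNOT8, CNOT2, CNOT4 and CNOT6L formed the steep end in shControl, from -0.190 to -0.179, with intervals that overlapped throughout. CNOT6 at -0.140 and CNOT3 at -0.103 followed, then CNOT10 at -0.060 and CNOT7 at -0.027. CNOT1 alone had a positive estimate, 0.041. With libraries scaled by their totals alone it was -0.026 (adjusted p = 0.337, edgeR), and the median of all transcripts moved from -0.0178 to -0.0855.

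**Figure D1:**
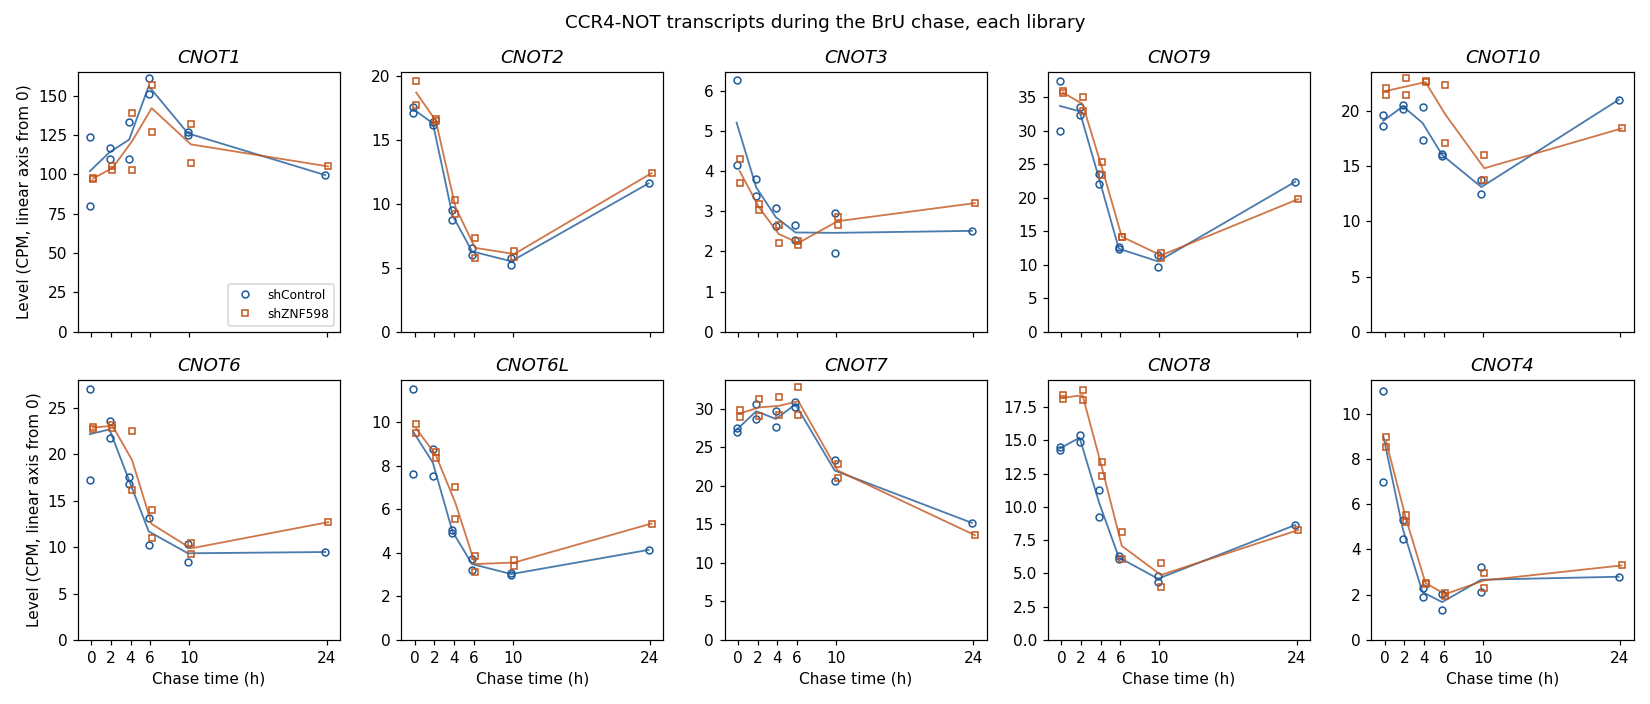
Level of each CCR4-NOT transcript in each library (CPM, linear axis from 0) against chase time in hours. Circles are shControl and squares shZNF598 libraries, lines join the means, and 24 h has 1 library per hairpin. CNOT1 was highest at 6 h in both arms, CNOT7 kept a similar level to 6 h, and CNOT4 was at 1.67 CPM (shControl) and 2.02 CPM (shZNF598) by 6 h.

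**Figure D2:**
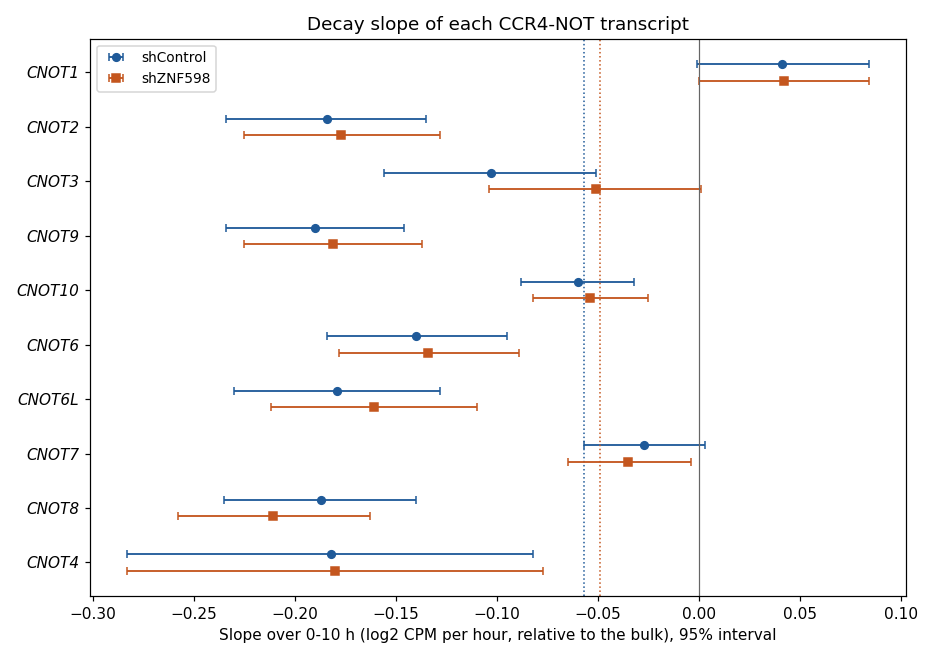
Slope of each transcript over 0-10 h (log2 CPM per hour relative to the bulk) in shControl (circles) and shZNF598 (squares), with 95% intervals from the fit; dotted lines mark the medians of 10725 protein-coding genes, -0.057 and -0.049. CNOT9, CNOT8, CNOT2, CNOT4 and CNOT6L lie at the left and CNOT1 at the right. With libraries scaled by their totals alone the CNOT1 estimates were -0.026 and -0.019, and neither passed the test.

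CNOT1, the scaffold (ENST00000317147.10, chromosome 16, 58519951 to 58629826, minus strand, 49 exons, 8412 nt), was the most abundant of the 10 and the only one with a positive slope estimate, which turned negative with library totals alone. In shControl its 2 libraries read 124 and 80.1 CPM at 0 h, 110 and 117 at 2 h, 133 and 110 at 4 h, 161 and 151 at 6 h, 127 and 125 at 10 h, and 99.5 CPM at 24 h. In shZNF598 they read 97.3 and 97.4 CPM at 0 h, 105 and 103 at 2 h, 139 and 103 at 4 h, 157 and 127 at 6 h, 132 and 107 at 10 h, and 105 CPM at 24 h. The arms overlapped at 4 of the 5 times with replicates, and the 6 h mean was 153% (shControl) and 146% (shZNF598) of the 0 h mean. The slopes of 0.041 ± 0.020 in shControl (adjusted p = 0.0690) and 0.042 ± 0.020 in shZNF598 (adjusted p = 0.0680) did not pass edgeR's test, and they differed between the arms by 0.000 (95% interval -0.059 to 0.060). The call depended on scaling and other settings. With size factors by RLE the slopes were 0.053 (adjusted p = 0.0171) and 0.051 (adjusted p = 0.0223), and DESeq2 called both (adjusted p = 0.0103 and 0.0144). In shControl the slope also passed edgeR's test with 1 transcript per gene (0.051, adjusted p = 0.0456) and the replicate block (0.043, adjusted p = 0.0433). With library totals alone the slopes were -0.026 and -0.019 and did not pass (adjusted p = 0.337 and 0.502, edgeR). That scaling moved the median slope of all transcripts from -0.0178 to -0.0855 in shControl and from -0.0144 to -0.0755 in shZNF598. Over 0-6 h the slopes were 0.095 (adjusted p = 0.00409) and 0.092 (adjusted p = 0.00554). Leaving out shControl 10 h replicate 2 gave 0.056 (adjusted p = 0.0452) in shControl, and leaving out shZNF598 10 h replicate 2 gave 0.063 (adjusted p = 0.0179) in shZNF598, where leaving out shControl 0 h replicate 2 also gave a call (0.042, adjusted p = 0.0406). In shControl the lowest slope among these fits was 0.022, without shControl 0 h replicate 2.

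CNOT2 and CNOT3, the NOT module partners, are given side by side, and the 95% intervals of their slopes overlapped in shControl (-0.234 to -0.135 and -0.156 to -0.051) but not in shZNF598 (-0.225 to -0.128 and -0.104 to 0.001). CNOT2 (ENST00000229195.7, chromosome 12, 70243433 to 70354993, plus strand, 16 exons, 3282 nt) had 17.6 and 17.1 CPM in the shControl libraries at 0 h, 16.2 and 16.4 at 2 h, 8.71 and 9.49 at 4 h, 6.58 and 5.98 at 6 h, and 5.77 and 5.25 at 10 h. In shZNF598 it had 17.7 and 19.6 CPM at 0 h, 16.6 and 16.5 at 2 h, 9.18 and 10.3 at 4 h, 7.34 and 5.78 at 6 h, and 6.28 and 5.88 at 10 h. Most of the decline thus fell between 2 and 6 h, and at 24 h the level relative to the bulk was again higher, 11.6 CPM in shControl and 12.4 CPM in shZNF598. Its slopes were -0.184 ± 0.024 (adjusted p = 6.6e-07) and -0.177 ± 0.024 (adjusted p = 1.25e-06, edgeR).

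CNOT3 (ENST00000617930.2, chromosome 19, 54137782 to 54155681, plus strand, 17 exons, 4350 nt) was among the least abundant, with 45 to 455 counts per library. In shControl it read 6.25 and 4.16 CPM at 0 h, 3.38 and 3.80 at 2 h, 3.07 and 2.64 at 4 h, 2.65 and 2.29 at 6 h, 2.95 and 1.97 at 10 h, and 2.51 CPM at 24 h. In shZNF598 it read 4.30 and 3.70 CPM at 0 h, 3.02 and 3.17 at 2 h, 2.65 and 2.21 at 4 h, 2.16 and 2.26 at 6 h, 2.66 and 2.85 at 10 h, and 3.20 CPM at 24 h. The shControl libraries at 0 h were thus on both sides of shZNF598 replicate 1. The slope was -0.103 ± 0.025 in shControl (adjusted p = 0.00102) and -0.051 ± 0.025 in shZNF598 (adjusted p = 0.0728, edgeR), and the difference of 0.052 had a 95% interval of -0.022 to 0.125 and did not pass the test (adjusted p = 1.0). Leaving out 1 library moved this difference to 0.019 (without shControl 0 h replicate 1) or 0.093 (without shControl 10 h replicate 1). Over 0-6 h the shZNF598 slope was -0.146 (adjusted p = 0.000274), with library totals alone it was -0.112 (adjusted p = 0.000105), and it passed the test without shControl 0 h replicate 1 (-0.056), without shControl 10 h replicate 1 (-0.052) or without shZNF598 10 h replicate 2 (-0.074), whereas it was -0.032 without shZNF598 0 h replicate 1.

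CNOT9 (ENST00000273064.10, chromosome 2, 218568839 to 218597080, plus strand, 8 exons, 4080 nt), the docking subunit, declined at the steep end in both arms. Its shControl level was 33.7 ± 5.2 CPM at 0 h, 32.9 ± 0.91 at 2 h, 22.8 ± 1.2 at 4 h, 12.4 ± 0.16 at 6 h and 10.5 ± 1.2 at 10 h. The shZNF598 level was 35.7 ± 0.21 CPM at 0 h, 34.0 ± 1.5 at 2 h, 24.4 ± 1.4 at 4 h, 14.2 ± 0.011 at 6 h and 11.4 ± 0.56 at 10 h. In shControl and shZNF598, 97.6% and 95.1% of the 0 h level were left at 2 h and 31.1% and 31.9% at 10 h. The slopes were -0.190 ± 0.021 (adjusted p = 9.5e-08) and -0.181 ± 0.021 (adjusted p = 2.32e-07, edgeR).

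CNOT10 (ENST00000328834.9, chromosome 3, 32685188 to 32773875, plus strand, 19 exons, 2814 nt) forms a module with CNOT11 at the opposite end of CNOT1. Its slopes were near the medians of protein-coding genes, -0.057 in shControl and -0.049 in shZNF598. In shControl its libraries read 19.6 and 18.6 CPM at 0 h, 20.2 and 20.5 at 2 h, 17.4 and 20.3 at 4 h, 15.9 and 16.1 at 6 h, 12.5 and 13.7 at 10 h, and 21.0 CPM at 24 h. The shZNF598 libraries read 21.4 and 22.1 CPM at 0 h, 21.4 and 23.0 at 2 h, 22.7 and 22.6 at 4 h, 22.3 and 17.1 at 6 h, 16.0 and 13.7 at 10 h, and 18.4 CPM at 24 h. Both shZNF598 libraries were above both shControl libraries at 4 of 5 times, all but 10 h (shown by 21.1%, 25.2%, 26.2% and 21.7% of all transcripts at 0, 2, 4 and 6 h, and by 21.5% at 10 h). The slopes were -0.060 ± 0.014 (adjusted p = 0.000506) and -0.054 ± 0.014 (adjusted p = 0.00161, edgeR), and over 0-6 h they were -0.046 (adjusted p = 0.0549) and -0.021 (adjusted p = 0.365). CNOT11, its partner, had slopes of -0.140 (adjusted p = 1.22e-06) and -0.116 (adjusted p = 1.14e-05), and fell from 13.4 ± 0.54 to 5.09 ± 0.050 CPM over 10 h in shControl.

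CNOT6 and CNOT6L encode the alternative nucleases of one catalytic position. CNOT6 (ENST00000261951.9, chromosome 5, 180494379 to 180578358, plus strand, 12 exons, 6219 nt) had 27.1 and 17.2 CPM in the shControl libraries at 0 h, 21.8 and 23.6 at 2 h, 17.6 and 16.8 at 4 h, 13.1 and 10.2 at 6 h, and 10.3 and 8.38 at 10 h. CNOT6L (ENST00000649644.1, chromosome 4, 77713387 to 77819368, minus strand, 12 exons, 8844 nt) had 11.5 and 7.61 CPM in the same libraries at 0 h, 7.52 and 8.74 at 2 h, 5.04 and 4.91 at 4 h, 3.73 and 3.22 at 6 h, and 2.97 and 3.08 at 10 h. Both thus carried the difference between the shControl replicates at 0 h in the same direction. In shZNF598, CNOT6 went from 22.9 ± 0.18 CPM at 0 h to 9.87 ± 0.88 at 10 h and CNOT6L from 9.70 ± 0.29 to 3.55 ± 0.19. The slopes of CNOT6 were -0.140 ± 0.021 (adjusted p = 6.14e-06) and -0.134 ± 0.022 (adjusted p = 1.35e-05), and those of CNOT6L were -0.179 ± 0.025 (adjusted p = 1.54e-06) and -0.161 ± 0.025 (adjusted p = 7.23e-06, edgeR). Per kilobase, CNOT6 was the more abundant paralogue in every library, with a ratio to CNOT6L of 3.36 and 3.22 in shControl and 3.45 and 3.27 in shZNF598 at 0 h. The ratio was higher at 6 h, 5.01 and 4.51 in shControl and 5.18 and 5.00 in shZNF598, and at 24 h it was 3.27 and 3.38.

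CNOT7 and CNOT8, the alternative nucleases of the other position, had slopes whose intervals did not overlap in either arm. CNOT7 (ENST00000361272.9, chromosome 8, 17224966 to 17246857, minus strand, 7 exons, 6891 nt) read 27.5 and 27.0 CPM in the shControl libraries at 0 h, 28.7 and 30.7 at 2 h, 27.7 and 29.7 at 4 h, 30.9 and 30.2 at 6 h, 20.6 and 23.4 at 10 h, and 15.2 CPM at 24 h. The shZNF598 libraries read 29.9 and 28.9 CPM at 0 h, 29.1 and 31.3 at 2 h, 31.6 and 29.2 at 4 h, 32.8 and 29.2 at 6 h, 22.9 and 21.0 at 10 h, and 13.6 CPM at 24 h. CNOT7 tracked the bulk to 6 h and was lower in all libraries at 10 and 24 h. Its slope was -0.027 ± 0.015 in shControl (adjusted p = 0.0964) and -0.035 ± 0.015 in shZNF598 (adjusted p = 0.0381, edgeR), a difference of -0.008 with a 95% interval of -0.050 to 0.035. The shZNF598 call was lost with size factors by RLE (-0.025), without the low-count filter (-0.032), with 1 transcript per gene (-0.028), with DESeq2 (-0.025) and without shZNF598 10 h replicate 1 (-0.027), 10 h replicate 2 (-0.020) or 2 h replicate 2 (-0.034), and over 0-6 h the estimates were above 0 (0.020 and 0.011, adjusted p = 0.242 and 0.533). In shControl the slope passed the test over 2-10 h (-0.053, adjusted p = 0.0123), with library totals alone (-0.095, adjusted p = 0.000267) and without shControl 0 h replicate 2 (-0.035, adjusted p = 0.0475), whereas it was -0.010 without shControl 10 h replicate 1.

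CNOT8 (ENST00000517876.5, chromosome 5, 154858252 to 154876792, plus strand, 8 exons, 2709 nt), whose 3′ UTR holds the 4 octamers printed above, declined steeply after 2 h. In shControl it read 14.3 and 14.5 CPM at 0 h, 14.9 and 15.4 at 2 h, 9.21 and 11.3 at 4 h, 6.33 and 6.08 at 6 h, 4.38 and 4.82 at 10 h, and 8.64 CPM at 24 h. In shZNF598 it read 18.4 and 18.1 CPM at 0 h, 18.0 and 18.8 at 2 h, 13.4 and 12.3 at 4 h, 8.10 and 6.05 at 6 h, 5.77 and 3.99 at 10 h, and 8.26 CPM at 24 h. Both shZNF598 libraries lay above both shControl libraries at 0, 2 and 4 h (shown by 21.1%, 25.2% and 26.2% of all transcripts). CNOT2, which did not pass on the averaged level, also showed this at 3 of 5 times. For CNOT8 the arms overlapped at 6 and 10 h, and its slopes and ratios follow. The slopes were -0.187 ± 0.023 (adjusted p = 3.28e-07) and -0.211 ± 0.023 (adjusted p = 1e-07, edgeR), and their difference of -0.023 had a 95% interval of -0.089 to 0.043 and was -0.049 without shZNF598 10 h replicate 1 and -0.009 without shZNF598 10 h replicate 2. Per kilobase, the ratio of CNOT7 to CNOT8 was 0.755 and 0.730 in shControl and 0.640 and 0.629 in shZNF598 at 0 h, and by 6 h it was 1.92 and 1.95 in shControl and 1.59 and 1.89 in shZNF598. With these row lengths, CNOT8 was above CNOT7 per kilobase at 0 and 2 h and below it at 6 and 10 h in both arms. At 24 h the ratio was again below 1 (0.692 and 0.649). A shorter CNOT7 row, ENST00000523917.5, held a mean count of 1176.65 at a length of 628 codons, against 2036.85 at 2297 for the row used. The order of the pair can thus depend on the row chosen. The ratios are given as a description and were not tested.

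**Figure D3:**
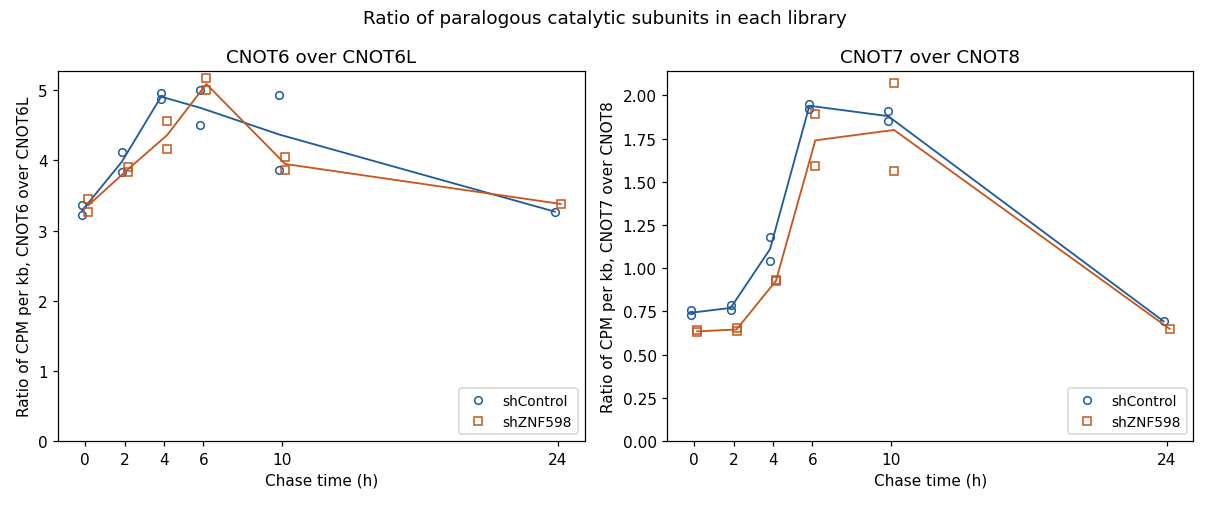
Ratio of CPM per kilobase of CNOT6 to CNOT6L (left) and of CNOT7 to CNOT8 (right) in each library against chase time in hours; circles are shControl, squares shZNF598, lines join the group values and 24 h has 1 library per hairpin. The CNOT7 to CNOT8 ratio went from 0.742 to 1.94 in shControl and from 0.634 to 1.74 in shZNF598 between 0 and 6 h.

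CNOT4 (ENST00000428680.6, chromosome 7, 135386151 to 135510076, minus strand, 11 exons, 4641 nt), the E3 ligase subunit, declined earliest. In shControl it read 11 and 6.99 CPM at 0 h, 4.48 and 5.28 at 2 h, 2.31 and 1.91 at 4 h, 2.01 and 1.32 at 6 h, 3.21 and 2.11 at 10 h, and 2.79 CPM at 24 h. In shZNF598 it read 8.51 and 8.97 CPM at 0 h, 5.23 and 5.51 at 2 h, 2.53 and 2.48 at 4 h, 1.96 and 2.08 at 6 h, 2.97 and 2.29 at 10 h, and 3.29 CPM at 24 h. At 2 h 54.3% (shControl) and 61.5% (shZNF598) of the 0 h level remained, the lowest share of the 10 genes in either arm at that time, and at 6 h 18.5% and 23.1% remained. The course was not a straight line, since the mean at 10 h was above that at 6 h in both arms. The slopes over 0-10 h were -0.182 ± 0.048 (adjusted p = 0.00196) and -0.180 ± 0.049 (adjusted p = 0.00287, edgeR), and over 2-10 h they were -0.095 (adjusted p = 0.126) and -0.116 (adjusted p = 0.0726).

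The makeup of the CCR4-NOT mRNA pool was compared per kilobase, since reads scale with transcript length. At 0 h in shControl, CNOT1 led with 12.1 ± 3.7 CPM per kilobase, followed by CNOT9 at 8.26 ± 1.3, CNOT10 at 6.78 ± 0.25, CNOT8 at 5.33 ± 0.047, CNOT2 at 5.29 ± 0.10, CNOT7 at 3.96 ± 0.060, CNOT6 at 3.56 ± 1.1, CNOT4 at 1.94 ± 0.61, CNOT3 at 1.2 ± 0.34 and CNOT6L at 1.08 ± 0.31. Neighbours in this order overlapped within 1 SD of each mean except CNOT10 and CNOT8, and CNOT2 and CNOT7. The order in shZNF598 was the same except that CNOT6L (1.10 ± 0.033) was above CNOT3 (0.919 ± 0.099). CNOT1 made up 24.2 ± 4.9% of the summed level of the 10 mRNAs at 0 h and 47.2 ± 0.17% at 10 h in shControl, and 22.1 ± 0.12% and 43.9 ± 1.6% in shZNF598. CNOT9 went from 16.9 ± 4.3% to 8.10 ± 0.85% and CNOT8 from 10.8 ± 1.2% to 5.34 ± 0.43% in shControl over the same time. Because reads were assigned to all isoforms they overlapped, a row can hold reads of shorter isoforms, and these shares are of rows rather than of molecules.

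The ZNF598 hairpin went with level differences of at most 0.38 in size on the log2 scale at 0 h. At that time, 0 of 10 genes passed the test by edgeR, against 0.407% of all transcripts, 2 had an unadjusted p below 0.05 and DESeq2 also called 0. These 2 were CNOT8, at 0.34 (95% interval 0.06 to 0.62, adjusted p = 0.374), and CNOT3, at -0.38 (95% interval -0.74 to -0.01, adjusted p = 0.480), in log2 units of shZNF598 against shControl. Among the alternatives CNOT3 passed only without shControl 0 h replicate 2 (-0.64, adjusted p = 0.0457), and without replicate 1 of that group its value was -0.06. Averaged over the 5 chase times, 2 of 10 were higher in shZNF598, where 12.3% of transcripts and 15.6% of genes were, and 0 of 10 were lower, where 10.1% of transcripts were. CNOT8 was higher by 0.25 ± 0.06 (adjusted p = 0.00569) and CNOT10 by 0.22 ± 0.05 (adjusted p = 0.00431, edgeR), and both passed in all 20 fits that left out 1 library. The group mean was higher in shZNF598 at 5 of 5 times for both genes, and also for CNOT2, CNOT9, CNOT6 and CNOT6L, which did not pass the test. For CNOT6L the means at 6 h were equal when rounded, 3.48 CPM in each arm. The share of all transcripts with this pattern was not counted, though 55.5% had an averaged difference above 0. With 10 genes, 2 calls are close to the share among all transcripts.

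The other 8 genes had averaged differences from -0.16 for CNOT3 to 0.13 for CNOT6L, none past the threshold. The 95% intervals bound the difference to -0.22 to 0.07 for CNOT1, -0.02 to 0.20 for CNOT2, -0.34 to 0.01 for CNOT3, 0.01 to 0.21 for CNOT9, -0.07 to 0.25 for CNOT6, -0.02 to 0.29 for CNOT6L, -0.04 to 0.14 for CNOT7 and -0.07 to 0.31 for CNOT4. The calls of CNOT3 (-0.22) and CNOT9 (0.14) changed without shControl 0 h replicate 2, which left 1 library in that group. That of CNOT6L (0.19) changed without replicate 1 of that group. The averaged difference of CNOT3 was -0.10 without that replicate 1. Leaving out replicate 2 or replicate 1 of that group gave -0.14 and -0.01 for CNOT1, 0.03 and 0.15 for CNOT6, and 0.06 and 0.19 for CNOT4.

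**Figure D4:**
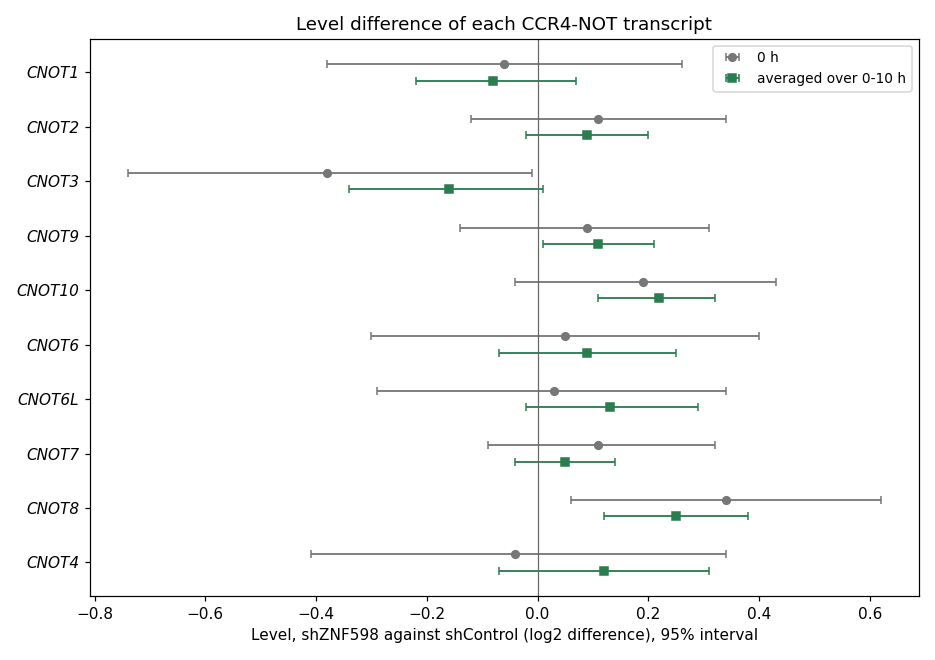
Difference in level, shZNF598 against shControl (log2), at 0 h (circles) and averaged over 0-10 h (squares), with 95% intervals from the fit. The averaged differences of CNOT8 (0.25) and CNOT10 (0.22) passed the adjusted threshold; the CNOT6L estimate at 0 h, 0.03, was -0.02 when libraries were scaled by their totals alone.

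The slopes of the CCR4-NOT mRNAs were not detectably different between the arms. The difference in slope, shZNF598 minus shControl, passed edgeR's test for 0 of 10 genes, against 0.116% of all transcripts. None of the 10 had an unadjusted p below 0.05, and DESeq2 called 0 but gave no adjusted p for CNOT4. The estimates ran from -0.023 for CNOT8 to 0.052 for CNOT3, with a median of 0.006 against 0.001 for all transcripts. The widest interval was that of CNOT4, -0.138 to 0.143, and the narrowest was that of CNOT10, -0.033 to 0.046.

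At 24 h, with 1 library per hairpin and no replicate check, most members stood above their 10 h level relative to the bulk. CNOT2, CNOT9 and CNOT8 were at 66.8%, 66.3% and 59.9% of their 0 h level in shControl, above the 31.7%, 31.1% and 31.9% of 10 h. In shZNF598 they were at 66.3%, 55.4% and 45.3%, above the 32.5%, 31.9% and 26.8% of 10 h. CNOT10 (68.6% to 110% in shControl and 68.1% to 84.5% in shZNF598), CNOT6L, CNOT3 and CNOT4 were also above 10 h in both arms. CNOT7 went the other way, from 80.7% at 10 h to 55.8% in shControl and from 74.7% to 46.3% in shZNF598. So did CNOT1, from 124% to 97.7% and from 123% to 108%. CNOT6 was at 42.1% at 10 h and 42.8% at 24 h in shControl, and at 43.1% and 55.5% in shZNF598. With the 24 h libraries included, a straight line gave slopes nearer to 0 than over 0-10 h except for CNOT7 (-0.040 in shControl and -0.051 in shZNF598). In that fit 2 of 10 genes in shControl (CNOT6 and CNOT7) and 1 of 10 in shZNF598 (CNOT7) passed the test. Among all 79513 transcripts, 12274 passed below 0 and 10695 above in shControl, against 32470 and 26650 over 0-10 h. In shZNF598 these numbers were 11158 and 9670, against 30583 and 26038.

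Other isoform rows of the same genes share reads with the rows above and are no independent evidence. Of 168 CCR4-NOT rows in the files, 133 were tested. All 34 rows of CNOT2, all 22 of CNOT8, all 7 of CNOT4, all 6 of CNOT9, all 5 of CNOT6L and all 4 of CNOT6 had a slope below 0 that passed the test in both arms. For CNOT1, 7 of 20 rows had a slope above 0 that passed in shControl and 4 in shZNF598, and 0 had one below 0 that passed. For CNOT3, 7 of 7 rows passed below 0 in shControl and 1 in shZNF598, for CNOT10 13 and 14 of 15, and for CNOT7 0 and 4 of 13. The averaged level was higher in shZNF598 for all 22 rows of CNOT8, from 0.19 to 0.40, and for 9 of 15 rows of CNOT10, from 0.13 to 0.23 over the 15.

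Other proteins of deadenylation were read in the same fit. TNKS1BP1, a CCR4-NOT associated protein, had slopes of -0.145 (adjusted p = 6.86e-05) and -0.131 (adjusted p = 0.000209), and neither it (0.14, adjusted p = 0.101) nor CNOT11 (-0.13, adjusted p = 0.0778) passed the test of the averaged level. Of 6 deadenylases outside the complex, 4 had a slope below 0 that passed the test in shControl and 3 in shZNF598, where NOCT (-0.142, adjusted p = 0.0652) did not pass, against 52.5% and 49.3% of protein-coding genes. PAN2 had a slope above 0 in both arms (0.132, adjusted p = 6.33e-06, and 0.149, adjusted p = 1e-06). On the averaged level, PAN3 (0.21), PDE12 (0.24) and NOCT (0.29) were higher in shZNF598 and PARN (-0.21) was lower. Of 6 poly(A)-binding proteins and partners, 3 were higher in shZNF598, namely PABPN1 (0.24), PAIP1 (0.22) and PAIP2B (0.30), and 0 were lower. The shares over all features were 12.3% of transcripts and 15.6% of genes higher, and 10.1% of transcripts lower.

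Of 27 adaptors that recruit or bind CCR4-NOT, 23 were tested, and ZFP36, ZFP36L2, NANOS1 and NANOS3 were below the filter. In each arm 15 of 23 had a slope below 0 that passed the test, against 52.5% (shControl) and 49.3% (shZNF598) of protein-coding genes and 40.8% and 38.5% of transcripts. On the averaged level, where 15.6% of genes and 12.3% of transcripts were higher and 10.1% of transcripts lower, 6 of 23 were higher in shZNF598, among them TNRC6A (0.48), a GW182 protein of microRNA silencing, PUM2 (0.21), which binds the octamer shown above, TOB2 (0.23), RC3H2 (0.19) and YTHDF2 (0.19), which reads m6A. The 3 that were lower were BTG2 (-0.56), BTG3 (-0.39) and TNRC6C (-0.38). Among these 35 tested genes other than CNOT11 and TNKS1BP1, 0 passed the test of the difference in slope. The lists were drawn up with earlier results known, and no test of the lists as sets was made.

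The genes whose time course was most like that of CNOT1, over the 10 group means of 0-10 h and among 10725 protein-coding genes, were NCBP1, TRMT2B, XPO5, DYM and RMDN1, with root mean square differences of 0.045 to 0.059 in log2 units. The other members were farther from CNOT1, from 0.264 for CNOT7 and 0.392 for CNOT10 to 1.03 for CNOT4.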

How the data were processed

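BRIC-Seq libraries (TruSeq Stranded after Ribo-Zero, single-end reads) were made from HEK293T cells with either hairpin. Per the labels and methods, the authors trimmed reads with fastp, removed noncoding RNA, aligned with STAR 2.7.0a to hg38 with GENCODE release 32 (1 mismatch, 1 locus per read) and counted with featureCounts; its strand setting is not given in the sources used here. The deposited values are raw read counts for 227264 transcripts per library, with no normalization. The study's 3 spike-in RNAs were not used here, so slopes are relative to the bulk and no half-life is given.

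Transcripts were named with GENCODE release 44 (98.4% matched without the version; unmatched ones held 2.22% of the counts). Low transcripts were left out by requiring 1 CPM on average in the 20 libraries up to 10 h, and the remaining 79513 were tested with edgeR 4.0.16 in R 4.3.3 (quasi-likelihood test, TMM, Benjamini-Hochberg adjustment over all of them), with 1 mean per group for levels and with shRNA and chase hours within each shRNA for slopes. The SE is the log2 value divided by the square root of F, and 95% intervals use the fit's degrees of freedom. The 24 h libraries entered 1 alternative. DESeq2 1.42.0, other scalings, filters, chase windows, the replicate block and leaving out each library were alternatives. The functions were tested on simulated data. CNOT6L has 2 rows with identical counts, of which the one with the same length in release 44 was used. The members and gene lists were chosen with earlier results of these data known. Named genes were the 10 members, ZNF598, CNOT11, TNKS1BP1, listed deadenylation genes with an adjusted p below 0.05 for a level or the difference in slope, and the 5 genes most like CNOT1; PAN2 was named after its values were seen, as were the 4 adaptors below the filter. No pair of replicates was as alike as sampling noise alone would make it (chi-square over degrees of freedom, 2.31 to 18.8). Counts of 45 to 13666 per library stood behind the members. A gene of the adaptor list is counted but not reported by name here.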

Additional observations from a re-analysis of the deposited data

How the results depend on the processing

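The averaged level of CNOT8 and CNOT10 passed the test under every alternative tried, and 0 of 10 genes passed for the difference in slope under any. For that difference DESeq2 gave no adjusted p for CNOT4. The alternative that took the highest transcript of any biotype picked the same transcripts for all 10 genes, so its results could not differ. The numbers of genes called changed by over 1.5 times with the 24 h libraries in the line. They went to 2 of 10 slopes in shControl and 1 of 10 in shZNF598. Over all transcripts the same setting took the slopes called from 59120 to 22969 in shControl and from 56621 to 20828 in shZNF598. Among the fits that left out 1 library, the numbers for both levels also changed by over 1.5 times without shControl 0 h replicate 2. Over the same fits 8 to 9 slopes passed in shControl and 7 to 9 in shZNF598.

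Estimates near 0 changed sign in places. With library totals alone, CNOT6L at 0 h was -0.02 and the CNOT1 slopes were -0.026 and -0.019; this scaling moved the median slope of all transcripts in shControl from -0.0178 to -0.0855. With the 0 h libraries alone CNOT6L was -0.01. Over 0-6 h the CNOT7 slopes were 0.020 and 0.011, and over 0-24 h the CNOT1 slope in shControl was -0.002. The difference in slope of CNOT1 was -0.002 with RLE, no filter, the replicate block or DESeq2, -0.001 with 1 transcript per gene and -0.003 over 0-6 h. That of CNOT2 was -0.002 over 0-6 h, those of CNOT9 and CNOT10 were -0.009 and -0.015 over 0-24 h, and that of CNOT4 was -0.0 without the filter, -0.021 over 2-10 h and -0.001 with DESeq2. The cause was not tested. Leaving out single libraries gave levels at 0 h of -0.35 to 0.28 for CNOT1, -0.07 to 0.25 for CNOT9, -0.25 to 0.41 for CNOT6, -0.25 to 0.35 for CNOT6L and -0.34 to 0.32 for CNOT4, with both ends set by the shControl 0 h libraries. The differences in slope were -0.014 to 0.022 for CNOT1, -0.013 to 0.029 for CNOT2, 0.019 to 0.093 for CNOT3, -0.004 to 0.029 for CNOT9, -0.002 to 0.021 for CNOT10, -0.004 to 0.026 for CNOT6, -0.002 to 0.035 for CNOT6L, -0.025 to 0.007 for CNOT7, -0.049 to -0.009 for CNOT8 and -0.055 to 0.079 for CNOT4.

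The deviations of same-numbered libraries correlated with r of -0.3 to 0.43 (median 0.02, over 0.1 in 12 of 45 pairs of groups). These correlations cannot show whether same-numbered libraries were handled together. With the replicate block 9 of 10 slopes passed in shControl, CNOT1 included at 0.043 (adjusted p = 0.0433), and 8 of 10 in shZNF598, with 0 of 10 and 2 of 10 for the levels and 0 of 10 for the difference in slope. Over all transcripts, the calls at 0 h were 324 in the main test, 788 without the filter, 550 with DESeq2, 91 with 1 transcript per gene and 11 with the 0 h libraries alone. Those of the difference in slope were 92, 46, 519 and 10 in the same first 4 settings, 35 with library totals, 22 over 0-6 h, 52 over 2-10 h and, by edgeR, 0 over 0-24 h (3203 with an unadjusted p below 0.05). Leaving out 1 library gave 49 to 1900 calls at 0 h and 31 to 126 for the difference in slope. With library totals 14039 slopes in shControl passed above 0 and 48370 below, against 26650 and 32470, in shZNF598 13566 and 46702, against 26038 and 30583, and at 0 h 28 levels were higher and 397 lower, against 58 and 266.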
